A study of Mus musculus with 4 samples.

Results

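The 10 genes described here, of 32285 in the deposited tables, are direct transcriptional targets of the tumor suppressor p53: Cdkn1a, Mdm2, Ccng1, Sesn1, Sesn2, Bax, Eda2r, Zmat3, Phlda3 and Trp53inp1. They were chosen by symbol, all 10 were found, and their levels were read in each cell class, in Gpc3-high against other hepatocyte nuclei, and by genotype. DNA damage stabilises p53, which binds response elements near its targets and raises their transcription. Cdkn1a then arrests the cell cycle, Bax promotes apoptosis, the sestrins restrain growth signalling, and Mdm2 closes the loop by marking p53 for degradation. In liver, diethylnitrosamine (DEN) is activated by cytochrome P450 enzymes of hepatocytes near the central vein and alkylates their DNA.

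Single-nucleus RNA sequencing, which counts transcripts as unique molecular identifiers (UMIs) in isolated nuclei, was carried out on liver outside tumors from male mice. All animals received DEN at 25 mg/kg when 14 days old and were killed at 12 months, so no library without DEN was compared. Of the 4 libraries, 2 were labelled Brca1-WT and the other 2 Brca1-KO, which the labels call biological replicates and describe no further. The sources used here do not name the Cre driver or the extent of the Brca1 deletion. P-values therefore measure the spread between these samples. Values below are CPM, here UMIs per 1000000 UMIs of the same class and library, in the order Brca1-WT replicate 1, Brca1-WT replicate 2, Brca1-KO replicate 1 and Brca1-KO replicate 2 unless stated otherwise.

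The libraries held 36662067 to 45638888 UMIs in 5209 to 7833 barcodes, and 23868 nuclei were kept. Of 26501 distinct barcodes, 90 occurred in more than 1 library. Brca1 in hepatocyte-like nuclei stood at 13.4, 12.4, 18.7 and 5.77 CPM, so only 1 of the libraries labelled Brca1-KO was below the Brca1-WT ones, and a 3′ tag outside the deleted exons would check nothing. The library labelled Brca1-KO replicate 2 stood apart. Clusters 6, 16 and 18 held 3883 of its 4092 hepatocyte-like nuclei (94.9%), against 2.11%, 2.46% and 0.350% in the other libraries, whose hepatocyte-like nuclei lay mainly in clusters 2, 3 and 4. Genotype levels in hepatocyte-like nuclei are therefore given for each library, and fold changes also without this one, which leaves 1 library labelled Brca1-KO, assumed to vary as the other group does. Trp53, the gene of p53 itself, was at 20.6, 23.8, 20.5 and 21.9 CPM there.

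Promoter sequences of the members were searched for the p53 motif in a window around the start, so a motif elsewhere in a gene was not seen. A p53 response element is built from copies of a 10-base half-site, a palindromic consensus that reads alike on both strands. RefSeq promoters (build GRCm38.p6, 250 bases before to 50 after each start) were matched for 8 of the 10 genes, giving 10 promoters, and 5 genes had a promoter with a half-site: Cdkn1a, Mdm2, Sesn1, Bax and Ccng1. Of all 32851 promoters in the table, 8.36% held a half-site and 0.0731% held 2 of them 0 to 13 bases apart. Cdkn1a, at chr17:29090729-29091028 on the plus strand, held 2 half-sites with 12 bases between them, the first beginning at base -73 and the second at base -51 from the start. The other promoters of Cdkn1a (chr17:29093519-29093818) and Sesn1 (chr10:41810324-41810623) held none, nor did those of Sesn2, Eda2r and Phlda3. The promoters of Mdm2 (chr10:117710709-117711008, minus strand) and Sesn1 (chr10:41887189-41887488, plus strand) are printed in full since their levels differed between hepatocyte zones, and held 1 each. For Bax (chr7:45466849-45467148, minus strand) and Ccng1 (chr11:40755237-40755536, minus strand) the 30 bases around the half-site are shown. Capitals mark the half-sites, and a match describes the letters and not a bound site.
Cdkn1a: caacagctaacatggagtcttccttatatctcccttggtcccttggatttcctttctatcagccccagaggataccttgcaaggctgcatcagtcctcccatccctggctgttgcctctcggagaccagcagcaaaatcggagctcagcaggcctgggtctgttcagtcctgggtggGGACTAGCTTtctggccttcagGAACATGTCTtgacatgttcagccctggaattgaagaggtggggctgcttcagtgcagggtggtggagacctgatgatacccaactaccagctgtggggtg
Mdm2: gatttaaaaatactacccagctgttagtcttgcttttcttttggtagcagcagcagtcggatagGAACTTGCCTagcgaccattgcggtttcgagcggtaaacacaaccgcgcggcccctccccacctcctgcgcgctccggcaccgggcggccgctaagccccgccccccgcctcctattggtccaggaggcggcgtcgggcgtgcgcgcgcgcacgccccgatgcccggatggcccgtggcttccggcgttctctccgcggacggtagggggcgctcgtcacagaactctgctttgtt
Sesn1: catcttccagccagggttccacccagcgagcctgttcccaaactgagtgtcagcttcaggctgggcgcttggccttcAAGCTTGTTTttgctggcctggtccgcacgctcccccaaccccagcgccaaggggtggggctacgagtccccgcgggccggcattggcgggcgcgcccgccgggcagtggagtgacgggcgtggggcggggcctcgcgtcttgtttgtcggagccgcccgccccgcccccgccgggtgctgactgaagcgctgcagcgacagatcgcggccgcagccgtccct
Bax: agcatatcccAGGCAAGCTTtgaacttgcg
Ccng1: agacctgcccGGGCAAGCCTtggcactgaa

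Cdkn1a (ENSMUSG00000023067), which encodes the cyclin-dependent kinase inhibitor p21, had the widest relative range between libraries of the 9 members tested in hepatocyte-like nuclei. It was at 9.56 and 10.8 CPM in the Brca1-WT libraries, 20.6 in Brca1-KO replicate 1 and 0.490 in Brca1-KO replicate 2. The 2 libraries labelled Brca1-KO thus lay on opposite sides of both Brca1-WT libraries. Group means were 10.2 ± 0.875 and 10.6 ± 14.2 (SD, n = 2 each), and Brca1-KO over Brca1-WT gave a log2 fold change of 0.06 (standard error 1.36, edgeR adjusted p = 1.0). Without Brca1-KO replicate 1 it was −4.27 and passed (edgeR adjusted p = 0.0257), in a fit that called 0.194% of 16014 genes and assumed that the lone remaining library varies as the other group does. Without Brca1-KO replicate 2 it was 1.03 and did not pass. With 2 libraries against 2, an exact permutation test cannot go below p = 0.33.

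Counted per nucleus, Cdkn1a was rarest in Brca1-KO replicate 2. Of its 4092 hepatocyte-like nuclei, 19 held a Cdkn1a UMI and none held more than 1. In Brca1-KO replicate 1, 488 of 2575 held at least 1 and 96 held 2 or more. The Brca1-WT libraries had 243 of 2794 and 282 of 4020 nuclei with a Cdkn1a UMI, of which 33 in each held 2 or more. After thinning each nucleus to 1000 UMIs, the shares were 0.797%, 1.25%, 1.87% and 0% (upper end of the exact 95% interval 0.0906%, counting error only), with 33, 12, 7 and 20 shallower nuclei left out. Median depths were 8817, 5949.5, 9516 and 7359.5 UMIs, so the library with the fewest Cdkn1a UMIs was not the shallowest. The 484 B-like nuclei, with median depths of 1074 to 1296.5 UMIs, held no Cdkn1a UMI.

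Within clusters 2, 3 and 4, Brca1-KO replicate 1 was highest and Brca1-KO replicate 2 held no Cdkn1a UMI. In cluster 2, Cdkn1a was at 9.08, 8.82 and 19.1 CPM in the first 3 libraries. The 112, 41 and 56 nuclei of Brca1-KO replicate 2 in clusters 2, 3 and 4 held 0 Cdkn1a UMIs, with exact Poisson upper limits of 7.27, 15.8 and 12.2. The limit in cluster 3 lies above all 3 other libraries there (9.18, 6.17 and 14.2), so no difference was detectable in that cluster at this depth. In cluster 4, where the other libraries were at 9.63, 14.4 and 24.2, the limit also lies above Brca1-WT replicate 1. In its own clusters 6, 16 and 18 the level was 0.320, 0.648 and 0.554. In cluster 6, the 77 nuclei of Brca1-WT replicate 2 gave 9.32 (95% interval 2.54 to 23.9, from 4 UMIs), and the 35 nuclei of Brca1-WT replicate 1 gave 0 (upper limit 13.5). In endothelial-like nuclei the levels were 19.5, 6.67, 20.1 and 7.25 CPM, and Brca1-KO replicate 2 lay between the Brca1-WT libraries. Its level came from 7 UMIs, with a 95% interval (2.91 to 14.9) that held the level of Brca1-WT replicate 2. Cluster 1 held 599 of the 672 endothelial-like nuclei of that library, and cluster 0 held 1110 of 1567 in Brca1-WT replicate 1.

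**Figure D1:**
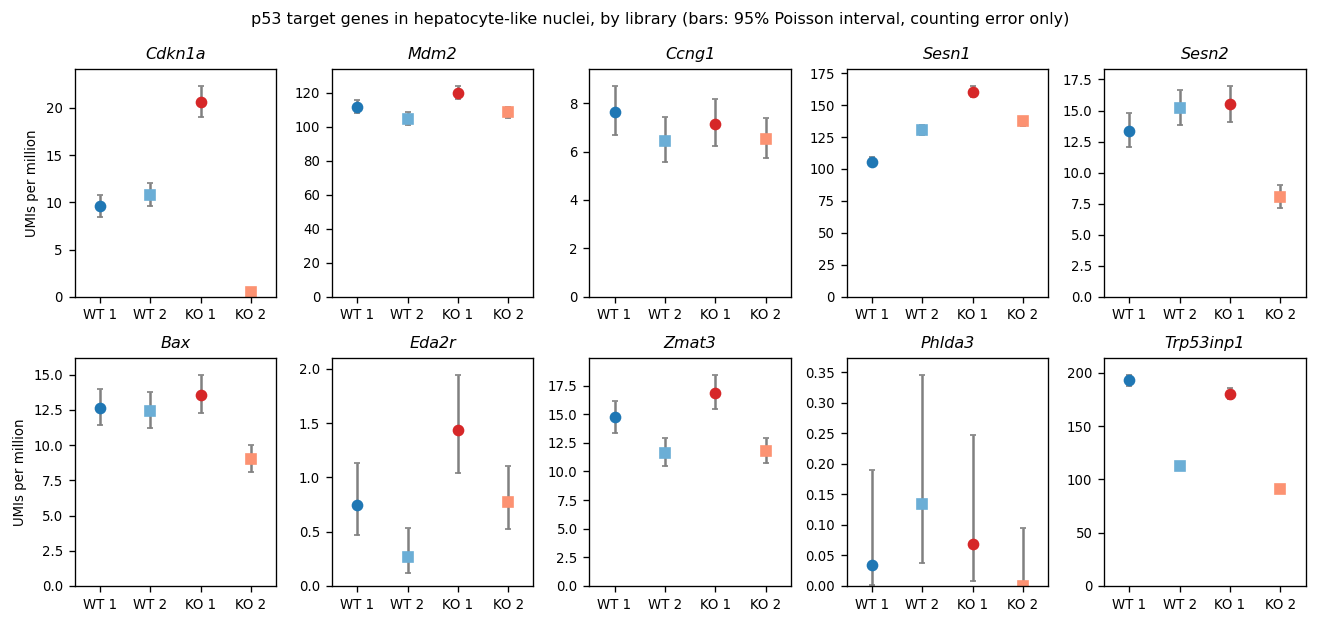
Levels of the 10 genes in hepatocyte-like nuclei, in CPM (y axis, linear) for each library (x axis; WT and KO for the Brca1 label and replicate), with exact 95% Poisson intervals as bars, which cover counting error only. Cdkn1a spans 0.490 to 20.6 with both extremes in libraries labelled Brca1-KO, while Mdm2 stays between 104.7 and 120.04.

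Some other genes had the library order of Cdkn1a. Ddit4, a stress-induced inhibitor of mTORC1 and itself a p53 target, was at 2.86, 9.52, 25.0 and 0.670 CPM in hepatocyte-like nuclei. Plk3, a kinase of the stress response and also a p53 target, was at 134.9, 186, 257 and 65.1. Arntl, the core activator of the circadian clock, was at 42.1, 54.04, 74.6 and 14.4. For these 3 genes, singled out after their values were seen, Brca1-KO replicate 1 was highest and Brca1-KO replicate 2 lowest, as for Cdkn1a. The members Sesn2 and Bax had the same highest and lowest library, as did, among other wider targets, Fdxr, Bbc3 and Gls2. The share of all genes with this highest and lowest library was not counted. Over 33 wider p53 targets tested, 16 were lowest and 5 highest in Brca1-KO replicate 2, where 40.2% of all genes were lowest and 23% highest. Among the 5 was Fas, a death receptor, at 18.1, 16.7, 17.8 and 23.02. Nr1d1, a clock repressor whose protein REV-ERBα represses Arntl, ran at 19.6, 14.4, 24.5 and 42.2, highest in Brca1-KO replicate 2. Of 14 clock genes tested, 6 were lowest and 4 highest in that library, near the 40.2% and 23% of all genes, and none passed between genotypes (edgeR). The part of clock phase or stress in the Cdkn1a levels was not tested.

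**Figure D2:**
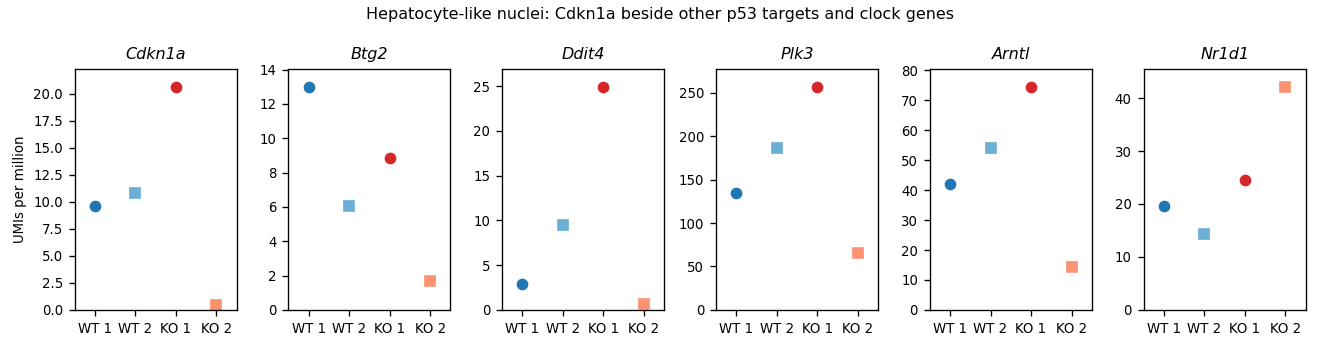
Cdkn1a beside 3 other p53 targets (Btg2, Ddit4, Plk3) and 2 clock genes (Arntl, Nr1d1) in hepatocyte-like nuclei, in CPM (y axes, linear, separate scales) by library (x axis). Brca1-KO replicate 2 is lowest for all but Nr1d1, where it is highest at 42.2.

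Mdm2 (ENSMUSG00000020184), the ubiquitin ligase that marks p53 for degradation, was nearly level across genotypes. Its levels in hepatocyte-like nuclei were 111.7, 104.7, 120.04 and 108.4 CPM, so the groups overlapped. Its log2 fold change of 0.13 (standard error 0.16) did not pass (edgeR adjusted p = 0.988), and was 0.17 without Brca1-KO replicate 2. Ccng1, cyclin G1, which recruits a phosphatase to Mdm2, was at 7.66, 6.45, 7.15 and 6.52, with a log2 fold change of 0.01 (standard error 0.23, edgeR adjusted p = 1.0), opposite in sign to its mean levels of 7.05 and 6.84, and 0.04 without Brca1-KO replicate 2. Its 95% Poisson intervals overlapped between all 4 libraries.

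The sestrins, which restrain mTORC1 under stress, had different orders over the libraries. Sesn1 was at 105.7, 130.6, 160.5 and 137.3 CPM, so each Brca1-KO value exceeded each Brca1-WT value. Its log2 fold change of 0.38 with a standard error of 0.20 did not pass (edgeR adjusted p = 0.988), and was 0.46 without Brca1-KO replicate 2. Sesn2 was at 13.4, 15.2, 15.5 and 8.04, with the low value in Brca1-KO replicate 2 alone (log2 fold change −0.24, standard error 0.33, edgeR adjusted p = 0.988). Without that library it was 0.13. Sesn2 overlaps the gene model Gm12981 on the same strand in GENCODE vM21, so its counts are uncertain.

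Among the death and growth regulators, Bax, which permeabilises the outer mitochondrial membrane, was at 12.7, 12.5, 13.6 and 9.05 CPM. Trp53inp1, a stress protein that promotes p53 phosphorylation and autophagy, was at 193.04, 112.4, 180.4 and 91.1, a spread within each genotype larger than that between the means. Zmat3, an RNA-binding regulator of splicing, was at 14.7, 11.6, 16.9 and 11.8. Eda2r, a receptor of the TNF receptor family that binds ectodysplasin A2, was at 0.749, 0.270, 1.44 and 0.773, higher in both libraries labelled Brca1-KO from 102 UMIs in all (log2 fold change 1.15, standard error 0.62, edgeR adjusted p = 0.988). With 1 library left out, the Eda2r value ran from 0.60 (without Brca1-WT replicate 2) to 2.05 (without Brca1-WT replicate 1), and was 0.70 and 1.51 without Brca1-KO replicate 1 and 2, passing in none. Without Brca1-KO replicate 2, the log2 fold changes of Bax, Zmat3 and Trp53inp1 were 0.13, 0.37 and 0.26, against −0.11, 0.16 and −0.13 over 4 libraries. Phlda3, a repressor of the kinase Akt, had 7 UMIs over all hepatocyte-like nuclei and was not tested.

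Over the list, 9 of the 10 genes passed the filter on low counts in hepatocyte-like nuclei, 6 with a positive and 3 with a negative log2 fold change, and none was called by edgeR. The share called among all 15118 genes was 0%, with 498 genes at an unadjusted p under 0.05, none of them a member. DESeq2 called 0.162% of genes and no member. Groups did not overlap for 2 members, Sesn1 and Eda2r, both higher, against 11.5% of all genes higher and 19.6% lower. The lowest library was Brca1-KO replicate 2 for 4 of the 9 (Cdkn1a, Sesn2, Bax and Trp53inp1), near the 40.2% of all genes. The median log2 fold change was 0.06, against −0.01 over all genes. Of 38 wider p53 targets, 33 were tested, 16 positive and 17 negative with a median of −0.03, and none passed. Those of smallest unadjusted p were Tnfrsf10b, a death receptor (log2 fold change −0.78), Dcxr (−0.63), Tap1 (−0.39) and Fas, a death receptor (0.29). Of 17 p53 regulators, 16 were tested and none passed. Sirt1, a deacetylase of p53, had the smallest unadjusted p at 37.7, 37.1, 53.2 and 40.6 CPM (log2 fold change 0.37, edgeR adjusted p = 0.988), followed by Ep300 (0.25), Atr (−0.20) and Cop1 (0.23).

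Mdm2 and Sesn1 differed between hepatocytes near the central vein and those near the portal vein, in opposite directions. Hepatocyte-like nuclei of each library were ranked by UMIs of pericentral over periportal genes, none of them a member, and split into 3 equal parts. Mdm2 was higher near the central vein in 4 of 4 libraries, at 129.5 against 99.1, 118.96 against 92.6, 123.3 against 112.8 and 129.5 against 89.04 CPM. Its log2 difference was 0.36 (standard error 0.07, edgeR with the library as a block, adjusted p = 0.00242). Sesn1 went the other way in 4 of 4 libraries, at 94.02 against 106.2, 120.1 against 142.5, 146.8 against 179.4 and 116.1 against 158.6. Its log2 difference was −0.29 (standard error 0.05, edgeR adjusted p = 0.00196). With each nucleus thinned to 1000 UMIs, Mdm2 passed (edgeR adjusted p = 0.0208) and Sesn1, at −0.25, did not (adjusted p = 0.104), where 15.9% of genes were called.

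These were 1 pericentral and 1 periportal call among 9 members tested, where 25.1% of 13392 genes were called, 12.2% pericentral and 12.9% periportal. Cdkn1a was at 9.81 against 9.84, 8.25 against 14.4, 16.6 against 23.9 and 0.628 against 0.330 CPM. Its log2 difference of −0.42 (standard error 0.16) did not pass (edgeR adjusted p = 0.081), but passed without Brca1-WT replicate 1 (−0.58, adjusted p = 0.0336) and without Brca1-KO replicate 2 (−0.47, adjusted p = 0.0273), in fits that called 21.6% and 22.9% of genes. Trp53inp1 was lower near the central vein in Brca1-WT replicate 1, at 160.1 against 209, and higher in the other libraries, at 135 against 84.5, 219 against 134.8 and 102.95 against 76.8. It did not pass over 4 libraries (log2 difference 0.35, edgeR adjusted p = 0.414) and did without Brca1-WT replicate 1 (0.61, adjusted p = 9.76e-05). Zmat3 was lower near the central vein in 4 of 4 libraries without passing (−0.19, edgeR adjusted p = 0.158). Ccng1, Sesn2, Bax and Eda2r did not pass and had mixed directions.

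**Figure D3:**
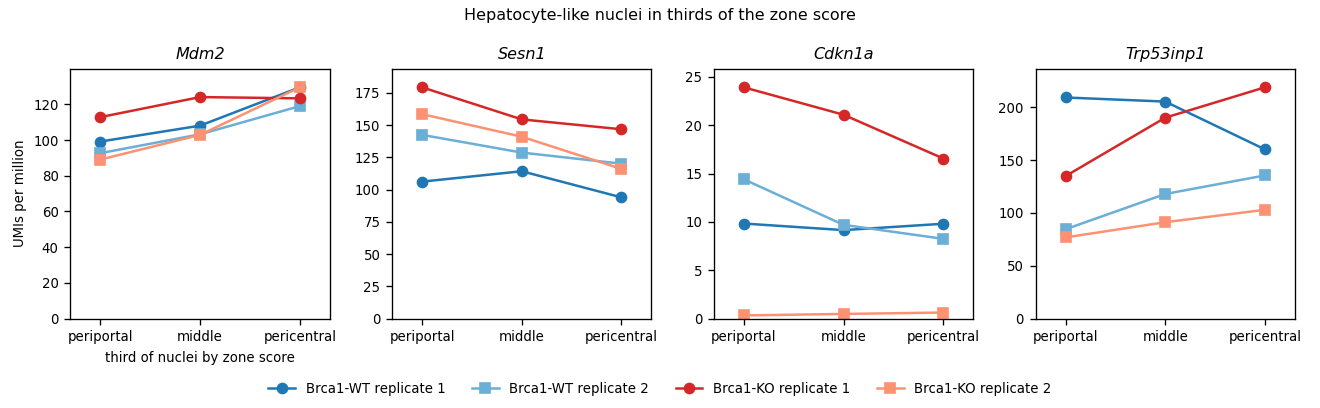
Mdm2, Sesn1, Cdkn1a and Trp53inp1 in CPM (y axes, linear) across the 3 parts of hepatocyte-like nuclei ranked by zone score (x axis), 1 line per library. Mdm2 ends higher and Sesn1 lower near the central vein in 4 of 4 libraries.

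Of the wider p53 targets, 32 were tested between zones, and 1 was called pericentral and 5 periportal, with a median of −0.09 against 0 over all genes to 2 decimals. Btg2, an antiproliferative gene, was at 4.22 against 31.5, 2.57 against 10.7, 5.41 against 16.3 and 1.12 against 2.89 CPM, lower near the central vein in 4 of 4 libraries (log2 difference −2.10, edgeR adjusted p = 0.000348). Prkab1, a subunit of the energy sensor AMPK (−0.71), Ei24 (−0.39) and Aen, an apoptosis-enhancing nuclease (−0.36), were also periportal. So was Gls2, a liver glutaminase (−3.03), while Cd82, a tetraspanin, was pericentral (0.28); these last 2 genes were named after their values were seen. Among 16 regulators tested, Hipk2 and Prkdc, kinases that act on p53 or on DNA breaks, were pericentral at 0.34 and 0.47, and none was periportal, where 12.2% of all genes were called pericentral and 12.9% periportal. Trp53 itself differed by 0.03 with a standard error of 0.08 and was not called.

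Gpc3, an oncofetal proteoglycan of hepatocellular carcinoma, marked hepatocyte cluster 14. Its level was 412 CPM over all nuclei of the cluster, against at most 0.557 in the other hepatocyte clusters. The cluster held 150 of 2794 hepatocyte-like nuclei of Brca1-WT replicate 1 (5.37%) and 22 of 4020 of Brca1-WT replicate 2 (0.547%). Not each of them held a Gpc3 UMI, since 2688 of the 2794 in Brca1-WT replicate 1 held none. At least 2 Gpc3 UMIs were found in 69 hepatocyte-like nuclei of Brca1-WT replicate 1 and 8 of Brca1-WT replicate 2. None of the 2575 and 4092 hepatocyte-like nuclei labelled Brca1-KO lay in the cluster. By counting error alone, a count of 0 leaves room for shares of at most 0.117% and 0.0733%. In Brca1-KO replicate 2, 94.9% of hepatocyte-like nuclei lay in clusters mostly its own, so its limit does not bound its share of nuclei with Gpc3. Chosen by UMIs, 1 hepatocyte-like nucleus of Brca1-KO replicate 1 and 0 of Brca1-KO replicate 2 held at least 3 Gpc3 UMIs. The cluster was made from the same nuclei, so its levels are a description without a test. Median depth was 6268.5 UMIs in the cluster against 8959.5 outside it in Brca1-WT replicate 1, and 7128 against 5944.5 in Brca1-WT replicate 2.

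Zmat3 was higher in the cluster in both libraries that had it. It was at 26.6 CPM (exact 95% Poisson interval 18.3 to 37.4, 33 UMIs) against 14.2 in Brca1-WT replicate 1, and at 33.4 (12.2 to 72.6, 6 UMIs) against 11.5 in Brca1-WT replicate 2. With each nucleus thinned to 1000 UMIs, too few Zmat3 UMIs remained in the cluster to tell whether it was higher. In Brca1-WT replicate 1, 2 UMIs gave 13.4 (1.63 to 48.5) against 16.1 outside, an interval that also holds the unthinned 26.6. In Brca1-WT replicate 2, 0 UMIs remained. Cdkn1a was at 15.3 against 9.31 and 16.7 against 10.8, with the outside level within the interval in both libraries (9.23 to 23.9, and 3.44 to 48.8).

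In Brca1-WT replicate 1, Sesn1 was at 79.1 (64.2 to 96.4) against 106.9, and Trp53inp1 at 154 (133.1 to 178) against 194.8, both below the outside level. Neither was below it in Brca1-WT replicate 2, at 139 against 130.5 and 139 against 112.3, within intervals of 89.97 to 205. Sesn2 was at 8.88 against 13.6 in the first and at 50.05 (22.9 to 95.01, 9 UMIs) against 14.98 in the second, so its direction was not shared. Mdm2 was at 129.9 against 110.9 and 66.7 against 104.9, within the intervals. Ccng1, Bax, Eda2r and Phlda3 also lay within them, from 0 to 14 UMIs each. When nuclei were instead chosen by at least 3 Gpc3 UMIs, only Brca1-WT replicate 1 had 20 or more (52 nuclei), so no test was possible. There Zmat3 was at 19.5 (9.72 to 34.8) against 14.7.

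**Figure D4:**
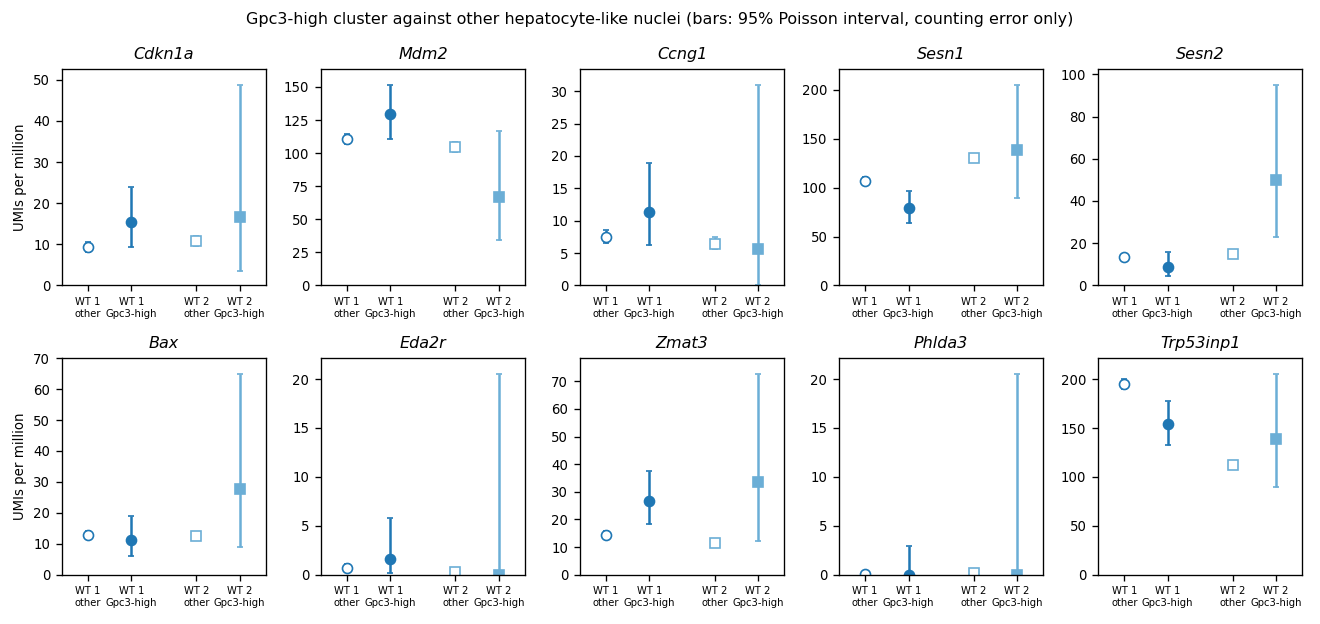
Levels of the 10 genes in the Gpc3-high hepatocyte cluster (filled) and in the other hepatocyte-like nuclei (open), in CPM (y axes, linear), for the 2 Brca1-WT libraries that held the cluster (x axis). Bars are exact 95% Poisson intervals for counting error only, and Zmat3 is higher in the cluster in both libraries, at 26.6 and 33.4.

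Between cell classes, the members did not share an order. Classes were named from marker genes, and all levels are means of 4 libraries with their SD, as a description, since clusters came from the same nuclei. Hepatocyte marker UMIs made up 0.287 to 0.933% of UMIs in the 5 other classes and 1.59 to 1.84% in hepatocyte-like nuclei, and the mean levels of the other classes were also taken in nuclei with under 1% such UMIs. There Cdkn1a was at 13.2 in endothelial-like, 3.65 in macrophage-like and 3.37 in stellate-like nuclei, and of the members only Sesn1 in macrophage-like nuclei moved by more than its SD, from 165.3 to 169.5. This cut kept 1524 of 1567 endothelial-like nuclei of Brca1-WT replicate 1 and 474 of 672 of Brca1-KO replicate 2. The class shares already lay under the cut, so it cannot tell whether hepatocyte RNA adds to these levels. With doublets kept, Cdkn1a was at 5.60 in stellate-like and 4.65 in T-like nuclei. In sums over a class, fewer expressing nuclei and less RNA per nucleus cannot be told apart.

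Cdkn1a was highest in endothelial-like (13.4 ± 7.42 CPM) and hepatocyte-like nuclei (10.4 ± 8.24) by the mean of 4 libraries, and all neighbouring classes overlapped. Hepatocyte-like nuclei lay above endothelial-like ones in Brca1-WT replicate 2 (10.8 against 6.67) and Brca1-KO replicate 1 (20.6 against 20.1). In Brca1-KO replicate 2, hepatocyte-like nuclei (0.490) lay below macrophage-like (2.22) and stellate-like nuclei (2.97). Those 2 classes held only 10 and 18 Cdkn1a UMIs over all 4 libraries, so this order rests on few UMIs. Cdkn1a was at 3.83 ± 3.81 in macrophage-like and 3.71 ± 0.761 in stellate-like nuclei, with 1 UMI in T-like and 0 in B-like nuclei. Mdm2 ran from 122.2 ± 14.7 in macrophage-like and 111.2 ± 6.56 in hepatocyte-like nuclei to 77.97 ± 8.29 in endothelial-like and 64.1 ± 8.83 in stellate-like nuclei. B-like and T-like nuclei lay between these pairs, at 95.8 ± 9.68 and 92.5 ± 11.5, and each class overlapped the next in the order of all 6, while hepatocyte-like and endothelial-like nuclei did not overlap. Ccng1 was lowest in hepatocyte-like nuclei at 6.95 ± 0.571, with no overlap with the next class, macrophage-like nuclei at 12.4 ± 2.65. Its other classes overlapped, up to 17.8 ± 17.3 in B-like nuclei from 9 UMIs.

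Sesn1 was highest in B-like nuclei at 493 ± 145 CPM, followed by endothelial-like (322 ± 91.8) and T-like nuclei (208 ± 16.9), each overlapping the next. T-like nuclei lay above macrophage-like nuclei (165.3 ± 4.06) without overlap, and stellate-like (153.8 ± 13.2) and hepatocyte-like nuclei (133.5 ± 22.5) came last. Brca1-KO replicate 2 was lowest in B-like nuclei (286) and in endothelial-like nuclei (195.7), where the other libraries were at 312 to 400. That library also had the highest share of hepatocyte marker UMIs in both classes. The share was 0.780% in its endothelial-like nuclei, against 0.399 to 0.4998% in the other libraries. In B-like nuclei it was 0.933% against 0.498 to 0.610%. The part of hepatocyte RNA in these low Sesn1 levels was not tested. Sesn2 was at 17.6 ± 4.98 in endothelial-like, 15.4 ± 4.08 in macrophage-like and 13.03 ± 3.45 in hepatocyte-like nuclei, all overlapping, and rested on 3 UMIs each in T-like and B-like nuclei.

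Eda2r and Phlda3 had their highest means in stellate-like nuclei. Eda2r was at 8.41 ± 2.35 in stellate-like and 7.71 ± 2.40 in endothelial-like nuclei, both above hepatocyte-like nuclei (0.807 ± 0.480) without overlap, with 0 UMIs in T-like and B-like nuclei. Phlda3 was at 4.42 ± 2.53 in stellate-like nuclei, from 21 UMIs, above endothelial-like nuclei (0.224 ± 0.262) without overlap. Trp53inp1 was highest in stellate-like nuclei at 303 ± 173, from 241.7, 415, 467 and 87.6 in the 4 libraries. The last, Brca1-KO replicate 2, was also lowest in hepatocyte-like, endothelial-like and macrophage-like nuclei. Bax was lowest in hepatocyte-like nuclei (11.9 ± 1.99) and highest in T-like nuclei (28.7 ± 13.4, 18 UMIs), and Zmat3 ran from 20.4 ± 3.37 in endothelial-like to 5.66 ± 8.23 in B-like nuclei, all neighbours overlapping.

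**Figure D5:**
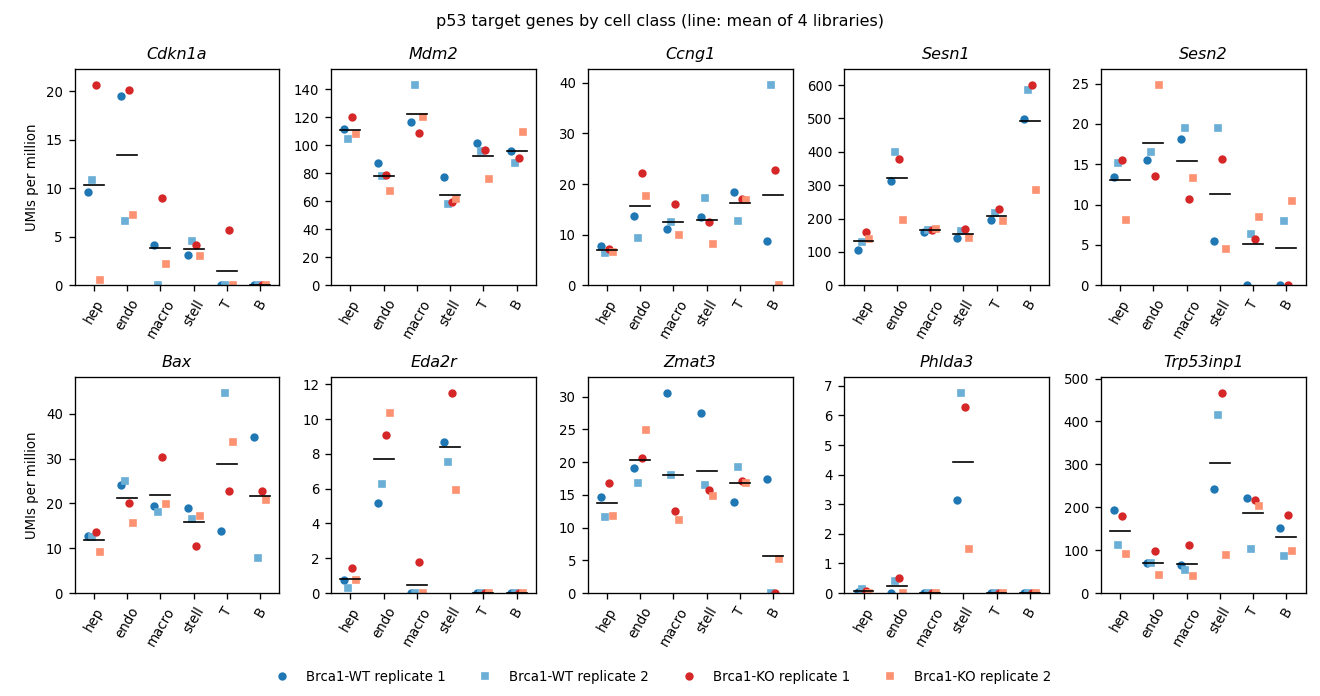
Levels of the 10 genes in CPM (y axes, linear) in hepatocyte-like (hep), endothelial-like (endo), macrophage-like (macro), stellate-like (stell), T-like and B-like nuclei (x axis), 1 point per library and a line at the mean of the 4. Sesn1 peaks in B-like nuclei at 493, and Eda2r and Phlda3 stand above hepatocyte-like nuclei in stellate-like nuclei.

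Genotype was compared in each of these classes as well. EdgeR called 0% of genes between genotypes in each of endothelial-like (11151 genes), macrophage-like (8282), stellate-like (9721), T-like (3893) and B-like nuclei (3681), so no member passed. At an unadjusted p under 0.05 there were 270, 359, 384, 175 and 192 genes in that order, and DESeq2 also called 0 in each. In endothelial-like nuclei, Ccng1 was at 13.7 and 9.41 against 22.1 and 17.6 CPM in the libraries labelled Brca1-KO (log2 fold change 0.86, standard error 0.33, edgeR unadjusted p = 0.0384, adjusted p = 1.0). Eda2r was at 5.17 and 6.27 against 9.06 and 10.4 (log2 fold change 0.82, edgeR adjusted p = 1.0). Groups did not overlap for 4 members there, with Ccng1, Eda2r and Zmat3 higher and Bax lower, where 10.6% of genes were higher and 22.2% lower without overlap. In the test of whether the genotype difference differs between endothelial-like and hepatocyte-like nuclei, 0% of 16215 genes were called, with 541 at an unadjusted p under 0.05. Ccng1 had an interaction of 0.87 (edgeR unadjusted p = 0.0462, adjusted p = 1.0), and Sesn1 one of −0.68 (unadjusted p = 0.0622). Brca1-KO replicate 2 had the highest share of hepatocyte marker UMIs in endothelial-like nuclei. It alone carried its label for the Sesn1 interaction of −1.06 without Brca1-KO replicate 1. Without the same library, Trp53inp1 passed in stellate-like nuclei (log2 fold change −1.84, edgeR adjusted p = 3.33e-12), where it was −0.23 over all 4. Both of these fits set 1 library labelled Brca1-KO against 2, so the spread comes from the other group, and called 4.04% of genes in stellate-like nuclei and 2.78% in the interaction.

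Genes whose levels ran most like a member's over the 24 sums of 6 classes in 4 libraries were ranked by Pearson's r on log2(CPM + 1), among 9348 genes. Pros1 was most like Cdkn1a (r = 0.878), followed by Man2a1 (0.785), Rusc2 (0.783), Bahcc1 (0.768) and Acadsb (0.766). Sppl2a was most like Mdm2 (r = 0.872), then Mapkapk2 (0.842), Atg7 (0.834), Esrra (0.832) and Homer1 (0.823). Lin9 was most like Ccng1 (r = 0.819), then Gpn1 (0.811), Lrrcc1 (0.81), Pms2 (0.806) and Riok1 (0.797). No other member was among them, and the points share libraries and depth.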

How the data were processed

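The deposited values were raw UMI counts per gene and barcode, which the authors had made, per the file headers, with Cell Ranger 6.0.0 and had not normalized. The submitters' processing notes name the human build GRCh38, yet the gene identifiers are mouse ones, so the sources used here leave the mouse build unnamed, and also whether intronic reads or strand were counted. Each deposited barcode held at least 500 UMIs, and libraries totalled 36662067 to 45638888.

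Nuclei with at least 500 genes and at most 5% mitochondrial UMIs were kept, and doublets called by Scrublet (2.99 to 11.3% per library) were removed. The 4 libraries were clustered together in scanpy 1.11.5 (Python 3.11.15) from 2000 variable genes without the members, by the Leiden method (resolution 1, python-igraph 0.11.9) on 15 neighbours in 30 principal components. Mixed lymphoid and dendritic clusters were split again at resolution 0.5, a step added after seeing the data, giving 29 clusters. A cluster was named "like" a class from at least 3 detected markers, and rebuilt names may differ from the study's. Classes with at least 30 nuclei in every library were tested.

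Sums of UMIs per library were tested in edgeR 4.0.16 under R 4.3.3 (robust quasi-likelihood, TMM scaling, filterByExpr), Brca1-KO minus Brca1-WT, and pericentral minus periportal with the library as a block. A Benjamini-Hochberg adjusted p below 0.05 over all genes passed. The steps were tested on data simulated with 1 spread setting for all genes, which did not copy the differences between libraries labelled Brca1-KO. Of genes changed by a log2 fold of 1, 65% were recovered between genotypes and 82% between zones. At a log2 fold of 2 these were 94% and 98%. False calls numbered 1 among 15157 genes and 7 among 13227, in the same order. Exact Poisson and Clopper-Pearson intervals are at 95%, and a count of 0 was taken to allow 3, which in each case covers the error of counting alone. Alternatives were DESeq2 1.42.0, other scaling, no filter, doublets kept, thinning, other zone splits and each library left out. Named were the members, Trp53, Brca1, up to 4 genes of smallest unadjusted p per list and fit, and 5 like genes each for Cdkn1a, Mdm2 and Ccng1. The lists were wider p53 targets, p53 regulators, cell cycle, integrated stress response, clock and senescence genes. The members and lists were chosen with earlier results of these data known.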

Additional observations from a re-analysis of the deposited data

How the results depend on the processing

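Of 107 recomputed hepatocyte genotype values of the members, 93 kept direction and side of the threshold. Cdkn1a reversed from 0.06 to −1.39 with the replicate block and −0.22 thinned to 1000 UMIs, and ran from −4.27 (without Brca1-KO replicate 1) to 1.03 with 1 library left out, at −0.03 without Brca1-WT replicate 1. Ccng1 reversed to −0.00043 with doublets kept, −0.37 thinned, and to −0.10 and −0.01 without Brca1-WT replicate 2 and Brca1-KO replicate 1. Sesn2 reversed to 0.29 thinned. With 1 library left out, Sesn2 ran from −0.73 to 0.13 and Bax reached 0.13, both positive without Brca1-KO replicate 2. Zmat3 ran from −0.062 (without Brca1-KO replicate 1) to 0.37. Trp53inp1 ran from −0.64 to 0.31, positive without Brca1-WT replicate 1 and, at 0.26, without Brca1-KO replicate 2. The Cdkn1a share difference reversed from −0.0876 to 0.0849 points thinned to 2000 UMIs and 1.85 unthinned. In the zone comparison, Ccng1 ran from −0.0045 (without Brca1-KO replicate 1) to 0.078, Sesn2 reversed to −0.025 without Brca1-WT replicate 1, Cdkn1a passed with no filter (adjusted p = 0.0121), and thinning left 1481 genes called against 3355. Their causes were not tested.

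Counts of genes called between genotypes moved from 0 to 2 with no filter and 25 with DESeq2 in hepatocyte-like nuclei, and to 2 and 17 in all nuclei. With no filter they were 46 in endothelial-like, 72 in macrophage-like, 30 in stellate-like, 12 in T-like and 12 in B-like nuclei, and 2 in T-like nuclei with doublets kept. Leaving out 1 library gave 0 to 31 calls in hepatocyte-like nuclei, 0 to 476 in endothelial-like, 0 to 526 in macrophage-like, 0 to 425 in stellate-like, 0 to 106 in T-like, 0 to 443 in B-like and 0 to 270 in all nuclei, and 0 to 469 for the interaction. Each of these maxima came without Brca1-KO replicate 1. Same-numbered libraries did not deviate together (r = −0.078 over 15118 genes), so the numbers were not read as pairing, and the replicate block left 0 genes called in hepatocyte-like nuclei. Of 88 recomputed class levels, 83 moved by less than 1 SD; with doublets kept, Mdm2 in endothelial-like nuclei was at 88.9. Phlda3, Eda2r and the lymphoid classes were limited by depth.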

Other observations

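Other gene groups tied to p53 or to stress were read in hepatocyte-like nuclei. Of 18 cell cycle genes repressed downstream of p53 and p21, 10 were tested between genotypes, 5 each way, and none passed. Plk1, a mitotic kinase, was at 0.476, 0.540, 0.342 and 0.180 CPM (log2 fold change −0.93, edgeR adjusted p = 0.988). Between zones, 1 of 4 tested passed, near the 25.1% of all genes called. This was Birc5, an inhibitor of apoptosis active in mitosis. It was lower near the central vein at 3.88 against 5.79, 5.14 against 8.18, 6.74 against 11.6 and 3.42 against 7.19 (log2 difference −0.79, edgeR adjusted p = 0.00139).

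Of 14 integrated stress response genes, 13 were found and 10 tested, 2 positive and 8 negative between genotypes, and none passed. Atf5, a transcription factor of the response, was at 159.1, 108.7, 127.3 and 45.2 CPM. It was periportal (log2 difference −0.49, edgeR adjusted p = 8.56e-05), as were Atf3 (−1.14) and Fgf21 (−0.61), while Atf4 (0.20) and Asns (1.22) were pericentral, 5 of 8 tested between zones, where 25.1% of all genes were called. Of 11 senescence genes, 5 were tested between genotypes and none passed. Between zones, 2 of 4 passed. Lmnb1, a nuclear lamin, was pericentral (0.30) and Cxcl1, a chemokine, periportal (−0.82). Glb1, which encodes lysosomal beta-galactosidase, was at 26.2 and 24.5 against 15.6 and 15.1 in the libraries labelled Brca1-KO (log2 fold change −0.67, edgeR unadjusted p = 0.0105, adjusted p = 0.988). Among 14 clock genes tested between zones, 4 passed, near the 25.1% of all genes. Per2 (−0.66), Cry1 (−0.81) and Ciart (−0.30) were periportal and Nr1d1 (0.30) pericentral.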
